A study of Rattus norvegicus with 2 samples.

Results

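The transcription factors that specify the hypothalamic paraventricular nucleus (PVN) were taken as 6 genes: Sim1, Sim2, Arnt2, Otp, Pou3f2 and Nhlh2. Every non-control probe that the array design assigns to these names was used, which gave 9 of 30367 probes (6 of 17573 named genes): 2 each for Sim1, Arnt2 and Nhlh2, and 1 each for Sim2, Otp and Pou3f2. The study measured RNA of the PVN in male Sprague Dawley rats at 12 weeks of age, on 1-colour rat gene expression arrays. The dexamethasone group was the offspring of mothers given 200 µg/kg dexamethasone (a glucocorticoid drug) during the third trimester, and the control group was the offspring of mothers given vehicle. Each group had 1 array. The labels do not say whether an array held RNA of 1 animal or of several. With 1 array a group the design allows no test, animal-to-animal spread is unknown, and the number of arrays limits the precision. The arrays shared 1 slide, and their place on it cannot be told apart from the treatment.

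The PVN is a hypothalamic centre whose neurons make vasopressin, oxytocin, corticotropin-releasing hormone, thyrotropin-releasing hormone and somatostatin, and which drives sympathetic outflow. In mice its neuroendocrine neurons depend on SIM1, a basic helix-loop-helix PAS protein that binds DNA as a dimer with ARNT2, and on OTP, a homeodomain protein that acts alongside them. POU3F2 (also called BRN2) is a POU-homeodomain factor that acts later in the same lineage, and its loss in mice removes vasopressin, oxytocin and corticotropin-releasing hormone neurons. SIM2 is the paralog of SIM1, and NHLH2 is a helix-loop-helix protein whose loss in mice causes adult-onset obesity.

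The probes are 60 bases long, and their positions are those of the rn4 assembly, as in the deposited files; exon annotation of that assembly was not used here. The Sim1 probes lie on chromosome 20 (54987874 to 54987933 and 54983817 to 54983876, plus strand), and the Sim2 probe on chromosome 11 (34376237 to 34376296, plus strand). The Arnt2 probes lie on chromosome 1 (140535871 to 140535930 and 140539747 to 140539806, minus strand), 3876 bases apart. The Otp probe (25178344 to 25178403) and the Nhlh2 probes (197102365 to 197102424 and 197104795 to 197104854) lie on the plus strand of chromosome 2, and the Pou3f2 probe on the minus strand of chromosome 5 (37282391 to 37282450). Both Sim1 probes and the first Arnt2 probe hold a stop codon in all 3 forward frames. The probes of Otp and Pou3f2 and the first Nhlh2 probe have an open first frame. They are shown because the Otp probe is the one on which the arrays differ in detection, the Nhlh2 probe is the one with the largest difference among the probes measured on both, and the Pou3f2 probe reads through the homeodomain. Capitals mark the stop codon in Nhlh2. In Pou3f2 they mark the codons for WFCNRR, a part of the recognition helix with which a homeodomain contacts DNA.
Otp: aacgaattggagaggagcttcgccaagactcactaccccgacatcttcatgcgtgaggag
Nhlh2: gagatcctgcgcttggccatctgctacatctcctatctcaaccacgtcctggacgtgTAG
Pou3f2: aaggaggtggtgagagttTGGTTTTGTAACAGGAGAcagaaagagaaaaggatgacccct

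All values called signals are processed intensities from the scanner software. The software subtracted its own background estimate, which was not the local background measured around each spot, and then adjusted the signal further. Signals are linear and are not scaled between arrays. All differences are log2 values, dexamethasone minus control, after the 75th percentile of each array was subtracted. A probe is called detected where the software marked it well above background, and measured where it was detected on both arrays. The 153 negative-control spots of each array reached at most 5.91 in the dexamethasone array and 2.97 in the control array. Every one of the 9 probes was spotted once per array, so the only error for a value is the one the scanner software assigns to a spot, and it covers neither animals nor RNA preparation. Signals of different probes are not compared, because probes bind their targets with different strength.

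Sim1 was near the floor of both arrays. Its first probe had a signal of 12.0 ± 2.08 (scanner error) in the dexamethasone array and 14.1 ± 2.03 in the control array. These are 2.03 and 4.76 times the highest negative-control spot of the same array. The difference was -0.31 (1.24-fold lower), against a scanner error of 0.32 on that difference, so the difference was within the error of the spots. Its second probe was not detected on either array, with signals of 2.32 and 1.43 in the dexamethasone and control arrays, both below the highest negative-control spot. Among 58 probes with repeated spots and a signal within 1 log2 of the first Sim1 probe, the between-array difference had a median SD of 0.27 over spots, which is close to the Sim1 difference itself.

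Sim2, which in mice contributes to the thyrotropin-releasing hormone and somatostatin neurons of the nucleus, was also detected on both arrays. Its signal was 11.6 ± 1.91 in the dexamethasone array and 13.7 ± 1.92 in the control array. The difference was -0.32, with a scanner error of 0.31. Both genes were thus detected on both arrays and lower by about the size of their error in the dexamethasone array.

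Arnt2, the dimer partner, was read far above background. Its first probe had a signal of 5200.2 ± 520.02 in the dexamethasone array and 4103 ± 410.3 in the control array, a difference of 0.27 (1.20-fold higher) with a scanner error of 0.20. Its second probe had 165.2 ± 16.6 in the dexamethasone array and 148.04 ± 14.9 in the control array, a difference of 0.08 with an error of 0.20. Both probes of Arnt2 were higher in the dexamethasone array, by 1.31 and 0.40 times their scanner error.

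Otp was the factor on which the arrays differed in detection. Its signal was 8.26 ± 1.73 in the dexamethasone array, where it was detected, and 1.92 ± 1.37 in the control array, where it was not. Before background subtraction the spot had a mean brightness of 69.1 in the dexamethasone array and 62.3 in the control array. The software subtracted a background of 59.97 and 60.2, in the same order. The local background around the spot was 60 in the dexamethasone array and 65 in the control array, where it exceeded the spot's brightness. Since the control value is only a bound, the fold was taken against the lowest signal that was well above background in the control array (6.53), which puts Otp in the dexamethasone array at least 1.20-fold higher. At face value the control signal gives a difference of 2.03, and the authors' deposited table gives 2.06. Both rest on a control spot that the software marked positive and significant against background but not well above it. The signal in the dexamethasone array was 1.40 times its highest negative-control spot. The detection of Otp in 1 array therefore rests on a few intensity units.

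Pou3f2 had a signal of 360.8 ± 36.1 in the dexamethasone array and 289.8 ± 29.04 in the control array. It was 1.18-fold higher (0.24), with a scanner error of 0.20. Among 230 probes with repeated spots at like signal the median spot SD of the difference was 0.06, so the single-spot difference of Pou3f2 was larger than that repeat error, which does not cover animals.

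Nhlh2 had the largest difference of the measured factors. Its first probe, which ends on the stop codon, had a signal of 59.2 ± 6.17 in the dexamethasone array and 79.98 ± 8.14 in the control array. It was 1.42-fold lower (-0.51), which is 2.42 times its scanner error of 0.21. Its second probe, 2430 bases further along the chromosome, was not detected on either array (1.74 in dexamethasone and 1.51 in control), so no second reading of the difference exists.

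**Figure D1:**
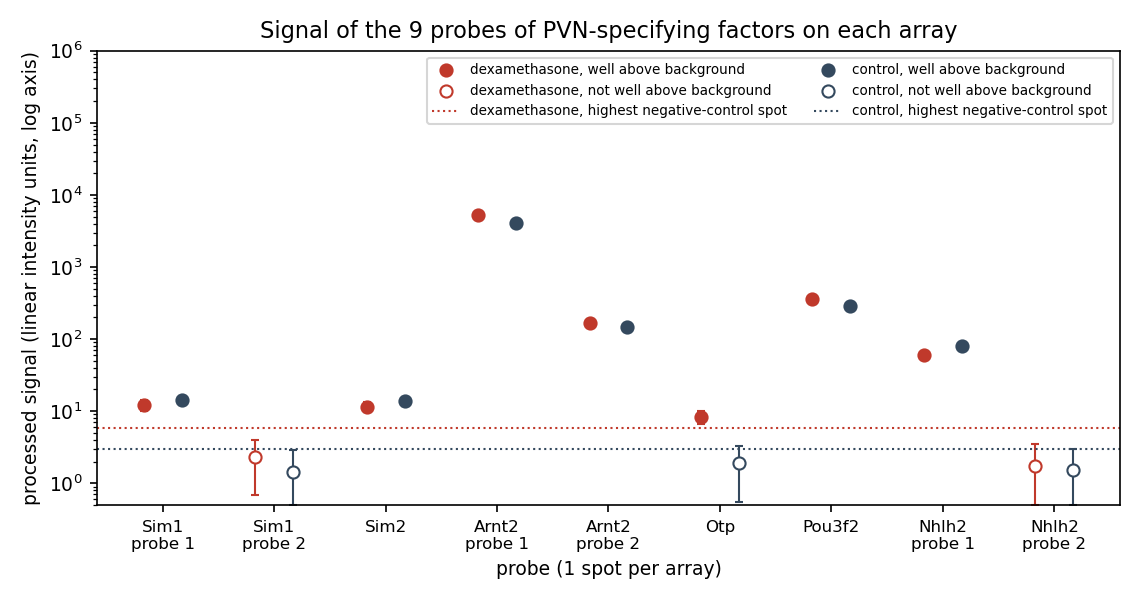
Processed signal (linear intensity, log axis) of each of the 9 probes, with the dexamethasone array left of the control array. Bars are the scanner software's spot error, cut at the lower edge of the axis, open circles are probes not well above background, and dotted lines mark the highest of 153 negative-control spots. Arnt2, Pou3f2 and the first Nhlh2 probe stand far above these lines, Sim1 and Sim2 just above them, and Otp crosses its line in the dexamethasone array only.

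Of the 6 factors, 5 were measured on both arrays; 2 of these were higher and 3 lower in the dexamethasone array, and 0 passed 2-fold in either direction. A fold of 2 is a rule of size and not a test. Among all 14175 named genes measured on both arrays 816 (5.76%) passed 2-fold, 478 (3.37%) higher and 338 (2.38%) lower. A count of 0 among 5 genes is near that background and is not a result about these factors. The median of the 5 differences was -0.31, against 0.0086 over all measured genes, of which the 25th and 75th percentiles were -0.20 and 0.20. That median is the value of Sim1, which lay within its scanner error of 0.32. The median of the factors was -0.035 with no filter on dim probes and 0.24 for bright probes alone. It therefore does not place the factors as a set. Arnt2 and Pou3f2 lay above 80.7% and 78.6% of genes, while Sim1, Sim2 and Nhlh2 lay above 17.1%, 16.5% and 9.14%. Genes with signals like those of the factors passed 2-fold in 7.50% (near Sim1), 7.03% (near Sim2), 3.30% (near Arnt2), 5.99% (near Pou3f2) and 11.0% (near Nhlh2) of cases. In bulk RNA, fewer cells of a type and less RNA per cell cannot be told apart, so these values do not separate how much of the nucleus a sample held from how strongly its neurons expressed the factors.

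**Figure D2:**
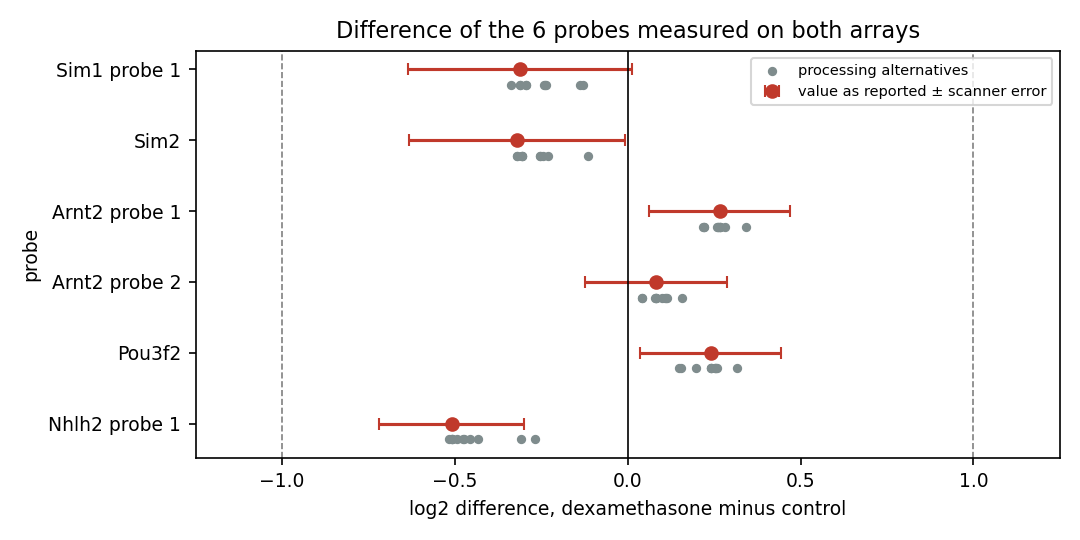
Log2 difference, dexamethasone minus control, of the 6 probes measured on both arrays (red, with the scanner error of the difference), and the same value under the processing alternatives (grey). Dashed lines mark 2-fold. Arnt2 and Pou3f2 lie to the right of 0 and Sim1, Sim2 and Nhlh2 to the left under every setting drawn, and none reaches 2-fold.

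The hormone genes of these neurons ranged from -1.91 to 1.41, with members past 2-fold in both directions. Avp (vasopressin) had a signal of 971.1 in the dexamethasone array and 3468 in the control array (-1.91, 3.76-fold lower, SD over 10 spots 0.04). Oxt (oxytocin) had 587.4 in the dexamethasone array and 1455 in the control array, a difference of -1.38. Both are products of the magnocellular neurons of the nucleus. Crh (corticotropin-releasing hormone) had 636.3 in the dexamethasone array against 230.2 in the control array, a difference of 1.39, and its other probe was at 1.55. Sst (somatostatin) had 21299.9 in the dexamethasone array against 7602 in the control array (1.41, 2.66-fold higher). Trh (thyrotropin-releasing hormone) had 554.1 in the dexamethasone array and 621.6 in the control array, a difference of -0.24. Of the 5 hormone genes 2 passed 2-fold upward and 2 downward, against 3.37% and 2.38% of all measured genes. Sst and Crh are also expressed by interneurons of the cortex, and the pallium and striatum genes had a median of 1.95 in the same comparison; their part in the hormone values was not tested.

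**Figure D3:**
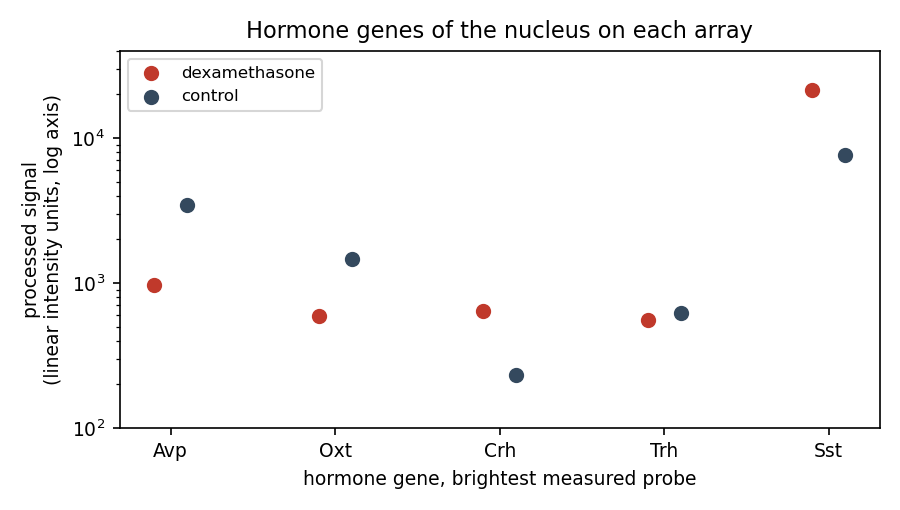
Processed signal (linear intensity, log axis) of 5 hormone genes on the dexamethasone array (left point) and the control array (right point), each at its brightest measured probe. Avp and Oxt are lower, Crh and Sst higher, and Trh nearly equal in the dexamethasone array.

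The promoters of 4 of the 5 hormone genes were matched by symbol in the RefSeq promoter table (GRCr8), and those of Avp, Oxt and Sst are shown because these genes passed 2-fold; Crh, which also passed it, was not matched. Each run is the 250 bases before the transcript start, on the gene's own strand: Avp on chr3:138248523-138248772 (minus), Oxt on chr3:138235504-138235753 (plus) and Sst on chr11:90461296-90461545 (plus). Capitals mark matches, on either strand, to ACGTG (the core of the element bound by SIM and ARNT proteins), CANNTG (the E-box of helix-loop-helix proteins), TAATTA (a homeodomain core) and ATGCAAAT (the octamer of POU proteins).
Avp: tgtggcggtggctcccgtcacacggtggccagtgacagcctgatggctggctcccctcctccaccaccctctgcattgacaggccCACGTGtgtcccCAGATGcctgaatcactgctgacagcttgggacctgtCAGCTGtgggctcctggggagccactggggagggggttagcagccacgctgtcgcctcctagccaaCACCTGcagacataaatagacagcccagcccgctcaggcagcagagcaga
Oxt: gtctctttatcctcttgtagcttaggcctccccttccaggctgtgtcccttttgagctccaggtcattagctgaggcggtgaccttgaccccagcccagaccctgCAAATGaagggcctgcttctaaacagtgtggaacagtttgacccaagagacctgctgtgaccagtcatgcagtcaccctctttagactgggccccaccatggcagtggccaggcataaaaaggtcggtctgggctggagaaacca
Sst: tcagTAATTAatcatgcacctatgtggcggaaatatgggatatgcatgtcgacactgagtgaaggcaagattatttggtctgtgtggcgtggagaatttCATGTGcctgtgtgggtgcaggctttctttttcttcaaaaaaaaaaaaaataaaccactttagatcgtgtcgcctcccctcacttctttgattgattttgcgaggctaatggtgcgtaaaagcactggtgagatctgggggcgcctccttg

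The Avp run holds 4 E-boxes, and the first, a palindrome, also matches the SIM and ARNT core on both strands. The Oxt run holds 1 E-box and no other match, the Trh run likewise 1 E-box, and the Sst run 1 E-box and 1 homeodomain core. Over all 33469 promoters of the table, the same window held the SIM and ARNT core in 16.6%, an E-box in 65.5%, the homeodomain core in 4.86% and the octamer in 1.56%. A match is a description of these letters and not a binding site.

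A further pair of genes acts downstream of the factors in mice. Mc4r, the melanocortin receptor through which SIM1 neurons control feeding, had a signal of 74.5 in the dexamethasone array and 30.8 in the control array. The difference was 1.20, and 0.40 with normexp correction. That correction subtracts the local background, models what remains and adds a constant of 50 to every probe. The constant by itself makes the differences of dim probes smaller. Pcsk1, a prohormone convertase whose gene NHLH2 activates, had 489.9 in the dexamethasone array and 442.1 in the control array, a difference of 0.07. Mc4r therefore passed 2-fold and Pcsk1 did not.

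The measured relatives of NHLH2, POU3F2 and the SIM and ARNT proteins ranged from -1.91 to 2.41, against -0.51 to 0.27 for the 5 measured factors. Nhlh1, the paralog of Nhlh2, had a signal of 1139 in the dexamethasone array and 203.7 in the control array (2.41, 5.31-fold higher), while Nhlh2 was at -0.51. The E-proteins, which pair with helix-loop-helix factors of this class, were at 1.46 (Tcf4), 0.49 (Tcf12) and 0.02 (Tcf3). In the POU family 9 genes were measured, 2 passing 2-fold upward and 3 downward, against 3.37% and 2.38% of all measured genes. Pou2f2 and Pou3f1 were at 1.19 and 1.05, and Pou4f1, Pou6f1 and Pou4f3 at -1.91, -1.30 and -1.03. Pou4f1 is also a factor of the habenula, next to the thalamus. Pou3f3, the other close relative of Pou3f2 that the cortex expresses, was at 0.76. Pou4f3 and Pou3f3 were named after their values were seen. Pou4f2 was detected in the dexamethasone array alone, at least 2.47-fold higher.

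Among 10 measured genes of the bHLH-PAS family, to which SIM1, SIM2 and ARNT2 belong, 1 passed 2-fold upward and 0 downward, with a median of 0.03. Over all measured genes 3.37% passed 2-fold upward and 2.38% downward, so 1 of 10 is not a result about the family. The upward count was 0 with normexp correction. Npas1, a factor of forebrain interneurons, was at 1.03. Ahr, the dioxin receptor, was at -0.74, Hif3a, of the hypoxia response, at 0.64 and Npas2, a clock factor, at -0.62 with its other probe at -0.09. Arnt, the paralog of Arnt2, was detected in the control array alone, with signals of 5.59 in the dexamethasone array and 14.5 in the control array, at least 2.09-fold lower. With normexp correction Npas1, Pou2f2, Pou3f1, Pou6f1 and Pou4f3 were at 0.87, 0.51, 0.98, -0.81 and -0.40, all short of 2-fold. Over the 43 relatives and hypothalamic factors measured, the differences nearest to that of Sim1 were those of Bmal1 (-0.31, other probe -0.47), Nr5a1 (-0.28) and Bmal2 (-0.25). That likeness rests on 2 arrays. The gaps to Sim1, at most 0.065, are below the scanner error of the Sim1 difference (0.32), so which genes lie nearest is not settled. No such comparison was made for Otp, which had only a bound.

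Factors that mark other parts of the hypothalamus gave a median of 0.36 over 20 measured genes, with 14 higher and 6 lower in the dexamethasone array. Of the 20 genes 3 passed 2-fold upward and 0 downward, against 3.37% and 2.38% of all measured genes. The median was 0.03 with normexp correction and 0.07 without background correction, and the upward count was 6 with quantile normalization, with no scaling and in the authors' deposited table. The 3 were Dlx5 (1.52), Lhx6 (1.41) and Vax1 (1.23, and 0.17 with normexp correction). Nkx2-1, a factor of the basal hypothalamus, was at 0.99. The lowest, named after their values were seen, were Lhx9 (-0.94, other probe -0.98), Rax (-0.84), Foxb1 (-0.76) and Isl1 (-0.75). Dlx5 and Lhx6 are factors of GABA neurons that the telencephalon also uses. The part of other regions in the values of this list, higher or lower, was not tested. Fezf1, a factor of the ventromedial nucleus, was detected in the control array alone, with a signal of 6.52 in the dexamethasone array and 30.8 in the control array, at least 4.44-fold lower.

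Markers of tissue outside the hypothalamus differed in opposite directions. These lists were chosen with earlier results of these data known, so a direction shared within a list is not independent support. Of all measured genes 3.37% passed 2-fold upward and 2.38% downward. All 15 measured pallium and striatum genes were higher in the dexamethasone array and 10 passed 2-fold, with a median of 1.95. Drd2 passed on its brightest probe (1.03) and not on its other probe (0.51). When the probes of a gene were averaged 9 passed, and 9 did in the authors' deposited table. With normexp correction the median was 0.96 and 7 passed 2-fold. The largest were Fezf2 (5.32), Neurod2 (4.66), Neurod6 (4.41) and Bcl11b (4.32), factors of cortical neurons. Fezf2 had a signal of only 10.8 in the control array and was at 2.94 with normexp correction, below Neurod2 (4.25), Neurod6 (3.96) and Bcl11b (3.91). Neurod2 had a signal of 5376 in the dexamethasone array and 202.0 in the control array. All 8 thalamic genes were lower, with a median of -0.95, and 3 passed 2-fold: Gbx2 (-1.19), Prkcd (-1.03) and Slitrk6 (-1.02). With no scaling between arrays 1 of the 8 passed 2-fold, and 4 did with quantile or loess normalization and in the authors' deposited table. The others were Ramp3 (-0.99), Tcf7l2 (-0.91), Zic1 (-0.89), Lef1 (-0.74) and Rora (-0.47). Summed signals of the pallium and striatum list were 36175 in the dexamethasone array against 12375 in the control array. Those of the thalamus list were 51461 in the dexamethasone array against 96455 in the control array. Such a sum is set mainly by the brightest probes and is not an amount of tissue. In the thalamus list Prkcd alone had 29763 in the dexamethasone array and 57762 in the control array. The part of tissue outside the hypothalamus in the values of the 6 factors was not tested.

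At the brightest measured probe of each gene, markers of cell classes stayed within 2-fold. Other measured probes lay outside the ranges below for Gfap (1.14, past 2-fold), Slc1a2 (0.81), Mbp (-0.69), Csf1r (-0.46) and Itgam (-0.08). The 12 pan-neuronal genes had a median of 0.04, with Elavl4 (-0.45) and Elavl2 (-0.42) lowest and Nefl (0.38) and Rbfox3 (0.37) highest. The 6 astrocyte genes (Gfap, Aqp4, Aldh1l1, Slc1a2, Slc1a3, Gja1) lay between -0.03 and 0.75. The 5 oligodendrocyte genes (Mbp, Mog, Mag, Cnp, Mobp) lay between -0.03 and 0.69 and the 5 microglial genes (Aif1, Cx3cr1, Csf1r, Itgam, C1qa) between -0.07 and 0.22. The 4 endothelial genes (Cldn5, Pecam1, Flt1, Slco1a4) lay between -0.37 and -0.01. The ependymal and choroid plexus genes Foxj1, Ttr, Kl and Folr1 lay between -0.07 and 0.39. Of 8 pituitary genes 6 were measured (Pomc, Tshb, Fshb, Lhb, Cga, Pou1f1), between -0.48 and 0.24, while Gh1 and Prl were not detected on either array.

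**Figure D4:**
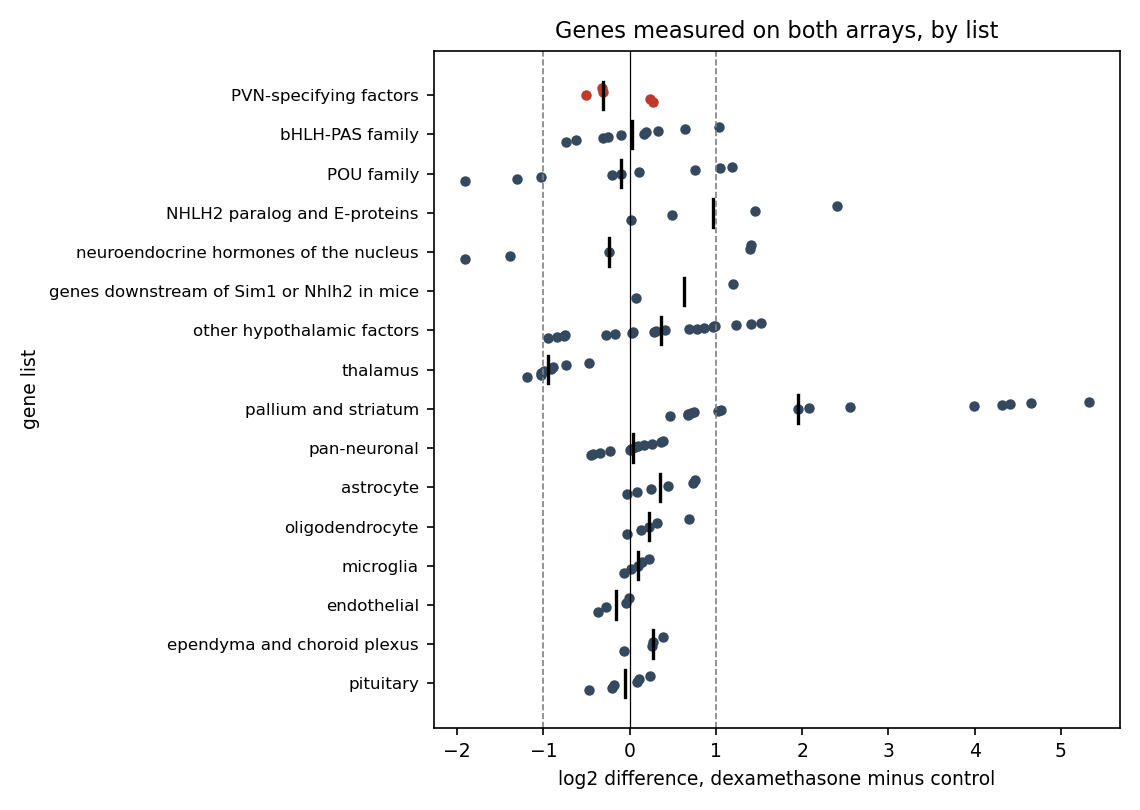
Log2 difference, dexamethasone minus control, of each gene measured on both arrays, with lists as rows, the median as a vertical bar and 2-fold as dashed lines. The 5 measured PVN-specifying factors (red) lie between -0.51 and 0.27, the thalamic genes all to the left of 0 and the pallium and striatum genes all to the right.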

How the data were processed

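The arrays were read in 1 colour (Cy3). Per the file headers, the authors quantified spots with Feature Extraction 10.7.1.1. The version in the submitters' processing notes is 9.5.1.1. The deposited files of both arrays give linear spot intensity, and the processed intensity is background-subtracted and further adjusted by that software. The authors' deposited value table holds intensity normalized between arrays by a method not given in the sources used here.

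Spots marked as outliers were left out (249 in the dexamethasone and 267 in the control array). Log2 processed intensities were averaged by probe and each array's 75th percentile was subtracted (1480.1 in the dexamethasone and 1404 in the control array, as linear signal). Of 30367 probes, 78.2% of the dexamethasone and 79.5% of the control array were well above background. A gene took its brightest probe well above background on both arrays. Names were updated through a RefSeq gene table (GRCr8): 18006 probes matched by accession, 2654 by symbol and 559 by older symbol, and 9148 were left out of counts of genes. Where 1 array alone detected a probe, its scaled value was divided to give a bound. The divisor was the other array's detection floor (its dimmest signal well above background), or the probe's signal there if higher. Such a bound takes the detected signal as exact and leaves out its spot error.

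Named genes were every probe of the 6 factors, all members of lists of up to 8 measured genes, the 4 largest differences of longer lists, and genes of those lists with a bound of at least 2-fold. The factors, lists and rules were chosen with earlier results of these data known. Some genes of the lists are not reported here. The summary steps were tested on simulated data. R 4.3.3 with limma 3.58.1 and Python 3.11.15 were used.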

Additional observations from a re-analysis of the deposited data

How the results depend on the processing

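The 13 alternatives covered scaling, normalization, background correction, spot and probe summaries, the filter on dim probes, the authors' value table and the size rule. Each measured probe of the factors kept its sign over the 12 settings giving it a value (11 for Sim1 and Sim2), the reported one included. The dim-probe filter, bright-probe and outlier-spot settings leave a single probe's value at or near the reported one, so they could not change its sign. Sim1 ranged from -0.34 to -0.13 and Sim2 from -0.32 to -0.11. The Arnt2 probes ranged from 0.22 to 0.34 and from 0.04 to 0.16, Pou3f2 from 0.15 to 0.32 and Nhlh2 from -0.52 to -0.27. The median over the factors was -0.11 without background correction, -0.14 with normexp correction, -0.24 with quantile normalization, in the authors' table and with no scaling, -0.035 with no filter on dim probes, and 0.24 for bright probes alone, where Sim1 and Sim2 drop out. With no filter, which takes the undetected control value of Otp at face value, Otp passed 2-fold upward (1 factor). Genes at least 2-fold higher and lower numbered 283 and 131 with normexp correction, 279 and 133 without background correction, and 870 and 732 with no filter. Those at least 2-fold lower numbered 207 for bright probes alone. At 1.5-fold the counts were 1034 higher and 1067 lower. List medians that changed sign were those of the bHLH-PAS family (-0.17 to 0.11), the POU family (-0.10 to 0.27), pan-neuronal genes (-0.02 to 0.11) and pituitary genes (-0.09 to 0.03). Of 604 other values 531 moved by less than the spot error or, for counts, by less than 1.5 times. That tally includes settings that could not move a value and list counts that were 0 under every setting. No leave-one-out value exists with 1 array per group. No paired analysis was possible because each group has 1 array and the groups share no second replicate. Signals as low as those of Sim1, Sim2 and Otp limit what can be read of them.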
